A study of Mus musculus with 24 samples.

Results

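The genes described are Xcr1, Irf8, Irf4, Flt3, Cd83 and Cd40, a set of dendritic cell genes taken by their symbols from a panel of 750 immune and cancer genes. All 6 were in the table. Of these, 5 were among the 600 genes bright enough to be tested across the panel, and Flt3 was not. They were measured in 24 subcutaneous CT26 tumours, which grow from a mouse colon carcinoma line in BALB/c mice, the strain the line came from. The assay was the NanoString nCounter Mouse PanCancer Immune panel, which counts labelled probes bound to RNA without amplification, here from formalin-fixed, paraffin-embedded tissue.

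Before implantation the cells had been kept for 40 weeks in 0.5 uM NP1867, an inhibitor of the DNA mismatch repair protein PMS2, or in its solvent DMSO. The mice received 4 doses of 5 mg/kg of either anti-PD-1 (clone RMP1-14), an antibody that blocks a brake on T cell activation, or isotype control (clone 2A3). This gave 4 groups of 6 tumours: NP1867 anti-PD-1, NP1867 isotype, DMSO anti-PD-1 and DMSO isotype. Antibody was assigned at random on day 7, once tumours averaged about 50 mm3, and sampling followed on day 19, 24 hours past the final dose. The tumours sampled were those near the mean volume of their group, so the p values describe the spread among tumours of similar size. Total counts ran from 62699 to 687032 per tumour. The 4 tumours under 200000 counts were all DMSO tumours, isotype 6 and 23 and anti-PD-1 11 and 37. The epithelial markers Epcam and Cdh1, which could mark the carcinoma cells, were dim in all groups, Epcam too dim to be tested, with summed levels on the linear scale of 17.8 to 155.

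Dendritic cells take up antigen and show it to T cells. One branch, the cross-presenting cells, depends on the transcription factor IRF8, carries the chemokine receptor XCR1, and presents antigen from dying cells to CD8 T cells. Another branch uses IRF4 and mainly activates CD4 T cells. Both grow from precursors under the cytokine FLT3L, acting through the receptor FLT3. On maturation, dendritic cells raise CD83 and the receptor CD40, through which CD4 T cells license them. Xcr1 is the most restricted of these genes in the mouse. Irf8 and Cd40 are also used by B cells and macrophages, Irf4 by activated T cells, B cells and plasma cells, Flt3 by early progenitors and Cd83 by activated lymphocytes. In bulk tumours, fewer cells of a type and less RNA per cell cannot be told apart.

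IRF8 is an interferon-inducible factor, and the bases upstream of its gene are shown because they hold the only matches among the promoters read. The promoter table (RefSeq, GRCm38.p6) had entries for 4 of the 6 genes and 5 start sites, namely Xcr1, Irf4, Flt3 and both starts of Irf8. Cd83 and Cd40 had no entry. From 250 bases before to 50 after each start, both strands were searched for the gamma-activated site TTCNNNGAA, the interferon-stimulated element (GAAA, any 2 bases, GAAA), the Ets-IRF composite element (GGAA, any 2 bases, GAAA) and the kappa B motif; the interferon-stimulated and composite elements share letters and can overlap. Of 32851 promoters of this length in the table, 8.30% held the gamma-activated site, 3.44% the interferon-stimulated element, 2.72% the composite element and 8.46% the kappa B motif. The upstream region of the first Irf8 start (chr8:120736108-120736357, plus strand) held 2 gamma-activated sites, at positions -171 to -163 and -153 to -145 from the start site, and its sequence is given with these sites in capitals.
Irf8 promoter: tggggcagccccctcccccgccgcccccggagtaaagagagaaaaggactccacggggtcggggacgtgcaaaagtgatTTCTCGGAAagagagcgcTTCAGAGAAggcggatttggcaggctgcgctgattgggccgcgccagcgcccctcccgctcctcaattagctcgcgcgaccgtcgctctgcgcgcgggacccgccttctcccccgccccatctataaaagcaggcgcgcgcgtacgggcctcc
The other 4 promoters held none of the motifs in these windows. A match of letters is a description and does not show that a factor binds there.

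The genes differed widely in level. In the table's own log2 units, in which a value is the log2 of a scaled count, the mean over all 24 tumours was 7.84 for Irf8, 6.50 for Cd40, 6.27 for Cd83, 4.84 for Xcr1, 4.34 for Irf4 and 4.28 for Flt3. Each probe has its own efficiency, so these levels do not rank the transcripts. The lowest count in any tumour was 36 for Irf8 and 24 for Cd40, and 7, 7 and 4 for Xcr1, Irf4 and Flt3. Genes were tested if their mean log2 value over all tumours was at least 4.32, the log2 of 20. Irf4, at 4.34, lay just inside that limit and Flt3, at 4.28, just outside it. Outside the NP1867 anti-PD-1 group the mean of Irf4 over the other 18 tumours was 4.09, under the limit. Without the DMSO anti-PD-1 group it was 4.30, also under the limit. Irf4 was thus tested through the anti-PD-1 groups, the first of which was the group in which it was highest. Flt3 is given from a fit of all 750 genes without the limit.

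**Figure D1:**
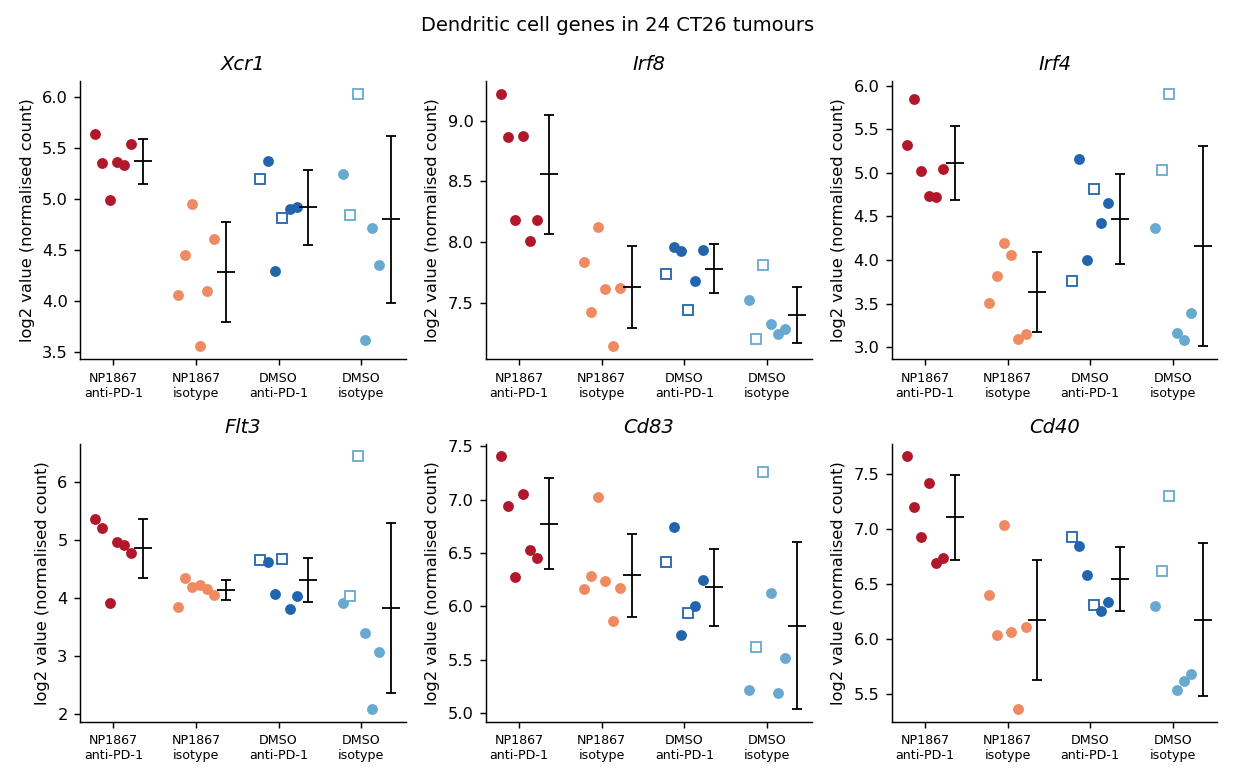
Log2 value of each of the 6 genes in every tumour, with groups from left to right NP1867 anti-PD-1, NP1867 isotype, DMSO anti-PD-1 and DMSO isotype. Black bars are the mean ± SD of 6 tumours and open squares are the 4 tumours under 200000 counts; the mean of every gene was highest in NP1867 anti-PD-1 tumours, from 4.86 for Flt3 to 8.56 for Irf8.

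In tumours whose cells had been kept in NP1867, anti-PD-1 was compared with isotype. Xcr1, Irf8, Irf4 and Cd40 rose, by 1.08, 0.93, 1.48 and 0.94 on the log2 scale, which is 2.12-, 1.91-, 2.79- and 1.92-fold. Cd83 and Flt3 were at 0.48 and 0.72 and did not pass. Called here means an adjusted p under 0.05 by limma, with Benjamini-Hochberg adjustment over the 600 genes. Of all tested genes, 12% were called higher in this comparison. Irf4 would not have been tested without the NP1867 anti-PD-1 group, so nothing is read from the count of 4 of 5. Xcr1, Irf8, Cd83 and Cd40 passed the limit without that group, and 3 of these 4 were called.

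Xcr1, the receptor for the chemokine XCL1, had log2 values of 4.99 at the lowest, 5.36 at the median and 5.63 at the highest in NP1867 anti-PD-1 tumours (32 to 61 counts). In NP1867 isotype tumours they were 3.55, 4.27 and 4.95 (14 to 27 counts). All 6 anti-PD-1 tumours lay above the highest isotype tumour, so the groups did not overlap. Of all tested genes, 3.83% were higher without overlap in this comparison. Group means were 5.37 ± 0.22 and 4.29 ± 0.49 (SD, n = 6 each), a log2 fold change of 1.08 (SE 0.31, 95% confidence interval 0.44 to 1.72, limma adjusted p = 0.0257, exact permutation p = 0.00216, two-sided, the smallest that permutation of these tumours can give). The call ended when isotype tumour 10, 49 or 57 or anti-PD-1 tumour 78, 30 or 45 was left out, with log2 fold changes of 0.94 to 1.09 and adjusted p from 0.0508 to 0.0736. It also ended once each tumour was centred on its median (0.74, adjusted p = 0.0697), after quantile normalisation (0.44, adjusted p = 0.166) and with the leukocyte gene Ptprc as a covariate (0.80, adjusted p = 0.13).

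Irf8, the factor that cross-presenting and plasmacytoid dendritic cells depend on, had log2 values of 8.01 at the lowest, 8.52 at the median and 9.22 at the highest in NP1867 anti-PD-1 tumours (204 to 582 counts). In NP1867 isotype tumours they were 7.14, 7.61 and 8.12 (110 to 302 counts). All but 1 of the anti-PD-1 tumours, 5 of 6, were above the highest isotype tumour, and the lowest overlapped it. Means were 8.56 ± 0.49 and 7.63 ± 0.34 (SD, n = 6 each), a log2 fold change of 0.93 (SE 0.20, limma adjusted p = 0.011, exact permutation p = 0.00433, two-sided). No tumour left out ended this call, and neither did centring (0.59, adjusted p = 0.0209), quantile normalisation (0.67, adjusted p = 0.015) or Ptprc as a covariate (0.70, adjusted p = 0.0327).

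Irf4, the factor of the other conventional branch and of activated lymphocytes, had log2 values of 4.73 at the lowest, 5.03 at the median and 5.85 at the highest in NP1867 anti-PD-1 tumours (21 to 62 counts). In NP1867 isotype tumours they were 3.09, 3.66 and 4.19 (8 to 24 counts). The groups did not overlap, and 3.83% of all tested genes were higher without overlap. Irf4 reached the limit for testing only with the NP1867 anti-PD-1 group included. Its call, overlap and p values are therefore given as description only. Means were 5.11 ± 0.42 and 3.63 ± 0.46 (SD, n = 6 each), a log2 fold change of 1.48 (SE 0.40, 95% confidence interval 0.65 to 2.31, limma adjusted p = 0.0221, exact permutation p = 0.00216, two-sided). The isotype mean is 12.4 on the linear scale, close to the low end of the panel. The call ended without isotype tumour 57 (1.37, adjusted p = 0.0626), anti-PD-1 tumour 78 (1.44, adjusted p = 0.0663) or anti-PD-1 tumour 30 (1.33, adjusted p = 0.0594). It also ended after quantile normalisation (0.77, adjusted p = 0.0609) and with Ptprc as a covariate (1.11, adjusted p = 0.113).

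Flt3, the receptor for the growth factor FLT3L, had log2 values of 3.92 at the lowest, 4.95 at the median and 5.36 at the highest in NP1867 anti-PD-1 tumours (20 to 39 counts). In NP1867 isotype tumours they were 3.84, 4.18 and 4.34 (13 to 27 counts). In 5 of 6 anti-PD-1 tumours Flt3 was above the highest isotype tumour, and the sixth lay within the isotype range. The log2 fold change was 0.72 (SE 0.45, 95% confidence interval -0.20 to 1.65), with a limma adjusted p of 0.225 in the unfiltered fit and an exact permutation p of 0.013, two-sided. The fit shares its estimate of the spread with the DMSO isotype tumours, whose Flt3 SD was 1.46, against 0.17 in NP1867 isotype tumours. The value turned to -0.013 after quantile normalisation and to -0.092 with the median of the untested dim genes as a covariate.

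Cd83, a surface glycoprotein of mature dendritic cells, had log2 values of 6.27 at the lowest, 6.73 at the median and 7.40 at the highest in NP1867 anti-PD-1 tumours. In NP1867 isotype tumours they were 5.86, 6.20 and 7.03. The groups overlapped, with 2 of 6 anti-PD-1 tumours above the highest isotype tumour. The log2 fold change was 0.48 (SE 0.29, 95% confidence interval -0.12 to 1.08, limma adjusted p = 0.217, exact permutation p = 0.0606, two-sided).

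Cd40, the receptor through which T cells bearing CD40 ligand act on antigen-presenting cells, had log2 values of 6.69 at the lowest, 7.07 at the median and 7.66 at the highest in NP1867 anti-PD-1 tumours (78 to 233 counts). In NP1867 isotype tumours they were 5.36, 6.09 and 7.04 (42 to 115 counts). The groups overlapped, and 3 of 6 anti-PD-1 tumours exceeded the highest isotype tumour. Means were 7.11 ± 0.39 and 6.17 ± 0.55 (SD, n = 6 each), a log2 fold change of 0.94 (SE 0.28, limma adjusted p = 0.0328, exact permutation p = 0.0108, two-sided). The call ended when isotype tumour 26, 49, 57 or 74 or anti-PD-1 tumour 78, 30 or 45 was left out, with log2 fold changes of 0.78 to 0.93 and adjusted p from 0.0503 to 0.105. It also ended after centring (0.60, adjusted p = 0.0615), after quantile normalisation (0.47, adjusted p = 0.104) and with Ptprc as a covariate (0.60, adjusted p = 0.155).

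The dim end of the panel also differed between these groups. The 150 genes too low to be tested had a median log2 value of 4.05 ± 0.55 in NP1867 anti-PD-1 tumours and 3.25 ± 0.22 in NP1867 isotype tumours (mean of tumour medians ± SD, n = 6 each; difference 0.80, exact permutation p = 0.0108, two-sided). Irf8, Cd83 and Cd40 were above the 90th percentile of those dim genes in all 24 tumours, Xcr1 in 16, Irf4 in 11 and Flt3 in 8. With the median of the dim genes as a covariate, an alternative chosen after seeing the data, 0 of the 5 genes and 4 of all 600 were called. Irf8 was then at 0.86 (adjusted p = 0.0713), Irf4 at 0.93 (adjusted p = 0.123), Xcr1 at 0.69 (adjusted p = 0.137) and Cd40 at 0.63 (adjusted p = 0.195). Measured from that median in the same tumour, Irf4 lay 1.07 ± 0.50 above it in NP1867 anti-PD-1 tumours and 0.39 ± 0.58 in NP1867 isotype tumours, Xcr1 1.32 ± 0.49 and 1.04 ± 0.50, and Flt3 0.81 ± 0.42 and 0.89 ± 0.30 (log2 units, SD, n = 6 each). The part of this shift in the results was not tested further.

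**Figure D2:**
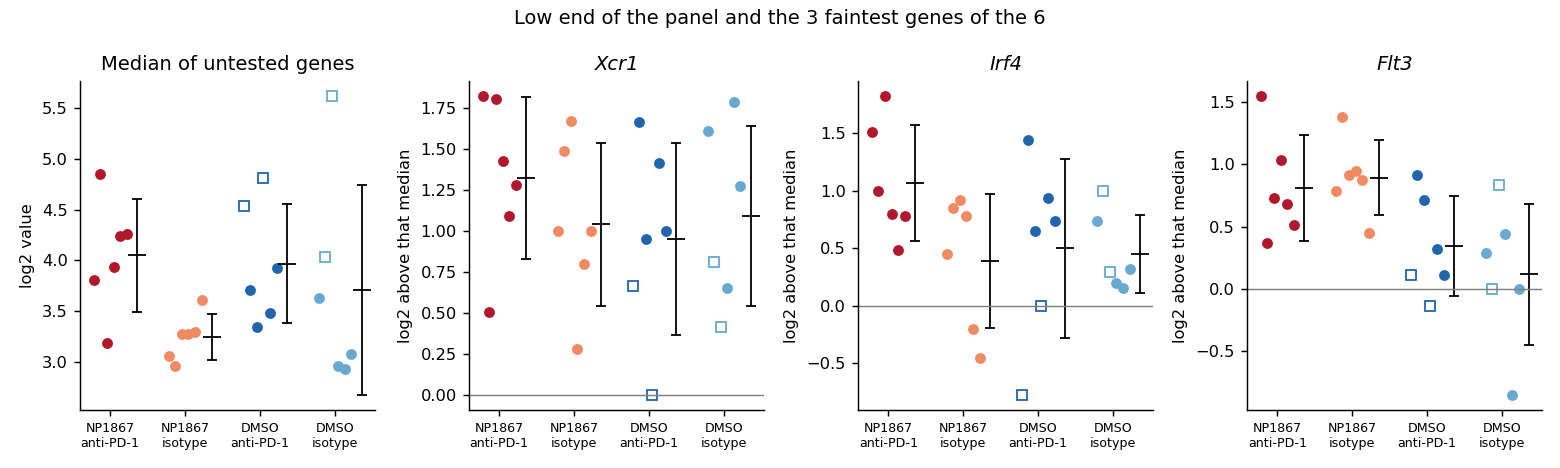
Left, the median log2 value of the 150 untested dim genes in each tumour; the other panels show how far Xcr1, Irf4 and Flt3 lay above that median in the same tumour, in log2 units. Groups run from left to right NP1867 anti-PD-1, NP1867 isotype, DMSO anti-PD-1 and DMSO isotype, black bars are mean ± SD of 6 tumours, open squares are the 4 tumours under 200000 counts, and the grey line is the dim-gene median; DMSO isotype tumour 23 is the highest point at left, at 5.62.

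In tumours whose cells had been kept in DMSO, 0 of the 5 genes passed in the same comparison when all tumours had equal weight. The background was 0% of all tested genes by limma, with 14.2% at an unadjusted p under 0.05, and none of the 5 was under that unadjusted level. Limma-voom on the counts also called 0 of 5. All 5 log2 fold changes were positive, and the median of all 600 genes was 0.23. With array weights, a fit that gives less weight to more variable tumours, 4 of the 5 genes were called: Irf8 at 0.48 (adjusted p = 0.00866), Irf4 at 0.94 (adjusted p = 0.00977), Cd83 at 0.71 (adjusted p = 0.00492) and Cd40 at 0.67 (adjusted p = 0.00676). That fit called 273 of all 600 genes. Irf4 would not have been tested without the DMSO anti-PD-1 group, so nothing is read from the count of 4 of 5. Among the genes that passed the limit without that group, Irf8, Cd83 and Cd40 were called and Xcr1 was not (0.41, limma adjusted p = 0.143).

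Irf8 had log2 values of 7.44 at the lowest, 7.83 at the median and 7.96 at the highest in DMSO anti-PD-1 tumours, against 7.20, 7.31 and 7.81 in DMSO isotype tumours. Every anti-PD-1 tumour was above the isotype mean, and 3 of 6 were above the highest isotype tumour. The log2 fold change was 0.38 (SE 0.20, limma adjusted p = 0.362, exact permutation p = 0.0173, two-sided). Cd40 had values of 6.26, 6.46 and 6.93 in DMSO anti-PD-1 tumours, against 5.53, 5.99 and 7.31 in DMSO isotype tumours. Its log2 fold change was 0.37 (adjusted p = 0.51), also with 6 of 6 anti-PD-1 tumours above the isotype mean.

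Xcr1 ran from 4.30 through a median of 4.91 to 5.37 in DMSO anti-PD-1 tumours, and from 3.62 through 4.78 to 6.03 in DMSO isotype tumours. Irf4 ran from 3.76 through 4.54 to 5.15 in DMSO anti-PD-1 tumours, and from 3.08 through 3.88 to 5.91 in DMSO isotype tumours. For both genes the isotype range enclosed the anti-PD-1 range. Their log2 fold changes were 0.12 (95% confidence interval -0.52 to 0.76) and 0.31 (-0.52 to 1.14). Flt3 ran from 3.80 through 4.35 to 4.68 in DMSO anti-PD-1 tumours, and from 2.08 through 3.66 to 6.45 in DMSO isotype tumours, and Cd83 from 5.73 through 6.12 to 6.74 against 5.19 through 5.56 to 7.26. Their log2 fold changes were 0.48 and 0.36, and neither passed.

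In the DMSO isotype group, the same tumour had the highest value of the group for each of the 6 genes. This was tumour 23, with 62699 counts in all, whose Xcr1, Irf4 and Flt3 values rested on 12, 11 and 16 counts and a scaling factor of 5.46. Without it the log2 fold changes in DMSO tumours were 0.66 for Irf4, 0.65 for Cd83, 0.59 for Cd40, 0.46 for Irf8, 0.36 for Xcr1 and 1.01 for Flt3. Without all 4 tumours under 200000 counts they were 1.06 for Irf4, 0.67 for Cd83, 0.72 for Cd40, 0.53 for Irf8, 0.39 for Xcr1 and 1.01 for Flt3. None of these passed, with adjusted p from 0.0731 for Irf4 to 0.377 for Xcr1 in that fit of 20 tumours.

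**Figure D3:**
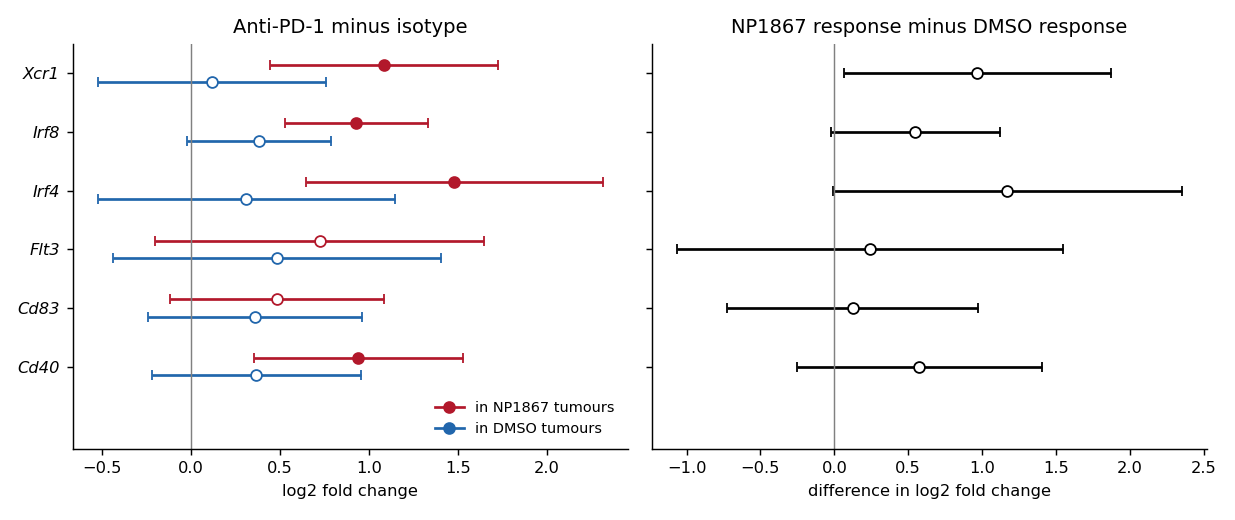
Left, the log2 fold change of anti-PD-1 over isotype for each gene in NP1867 and in DMSO tumours; right, the difference between these responses. Bars are 95% confidence intervals and filled points have an adjusted p under 0.05; Xcr1, Irf8, Irf4 and Cd40 are filled in NP1867 tumours, no gene is filled in DMSO tumours, and Flt3 is from the unfiltered fit.

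The response to anti-PD-1 in NP1867 tumours was next set against that in DMSO tumours. No gene passed, so the calls in NP1867 tumours are not shown to be a difference between the cultures. The difference in log2 fold change was 0.97 for Xcr1 (SE 0.44, 95% confidence interval 0.06 to 1.87, unadjusted p = 0.0373 by limma, adjusted p = 0.995). It was 1.17 for Irf4 (-0.01 to 2.35), 0.57 for Cd40 (-0.26 to 1.40), 0.55 for Irf8 (-0.02 to 1.12), 0.24 for Flt3 (-1.07 to 1.55) and 0.12 for Cd83 (-0.73 to 0.97), with 95% confidence intervals in parentheses. Limma called 0 of the 5 genes, 1 had an unadjusted p under 0.05, and limma-voom called 0. Over all tested genes the background was 0%, and 1.83% at the unadjusted level. Without the 4 tumours under 200000 counts the difference was 0.69 for Xcr1, 0.42 for Irf4, 0.22 for Cd40 and 0.40 for Irf8, and it turned to -0.19 for Cd83 and -0.29 for Flt3.

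Averaged over both cultures, 4 of the 5 genes rose under anti-PD-1, where 27% of all tested genes were called higher. Irf4 again entered through the anti-PD-1 groups, and would not have been tested without either of them, so nothing is read from the count of 4 of 5. This comparison uses the tumours of both comparisons above. On the log2 scale, Irf8 rose by 0.66 (SE 0.14, adjusted p = 0.0032), Cd40 by 0.65 (SE 0.20, adjusted p = 0.0241), Irf4 by 0.90 (SE 0.29, adjusted p = 0.0273) and Xcr1 by 0.60 (SE 0.22, adjusted p = 0.0412), all by limma. Cd83 was at 0.42 (adjusted p = 0.113) and Flt3 at 0.60 (adjusted p = 0.144 in the unfiltered fit). Without DMSO isotype tumour 23 Cd83 passed at 0.57 (adjusted p = 0.00978) and Flt3 at 0.87 (adjusted p = 0.00386). Cd83 also passed with array weights (0.57, limma adjusted p = 0.000915) and by limma-voom (0.49, adjusted p = 0.0466). Without the 4 tumours under 200000 counts, Cd83 passed at 0.58 (limma adjusted p = 0.0178) and Flt3 at 0.87 (adjusted p = 0.00551, unfiltered fit). The call of Xcr1 ended without NP1867 anti-PD-1 tumour 78, 30, 45 or 67, NP1867 isotype tumour 10, 49 or 57, DMSO anti-PD-1 tumour 11, 7, 43 or 74, or DMSO isotype tumour 6, 55, 59 or 64, with adjusted p from 0.0515 to 0.079. That of Irf4 ended without NP1867 anti-PD-1 tumour 78, DMSO anti-PD-1 tumour 7, or DMSO isotype tumour 55 or 59, with adjusted p from 0.0501 to 0.0536. With each tumour centred on its median, and also after quantile normalisation, Irf8 was called (0.36 and 0.39) and the other 4 genes were not.

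The long culture with NP1867 was also compared with DMSO within each antibody group. The labels name no separate cultures of either kind, so the tumours replicate mice and not the culture. The p values of these comparisons describe the spread among tumours. An effect of NP1867 cannot be told apart from another difference between the cultures. Among tumours of anti-PD-1 mice, Irf8 had log2 values of 8.01, 8.52 and 9.22 in NP1867 tumours at the lowest, median and highest, against 7.44, 7.83 and 7.96 in DMSO tumours. The groups did not overlap, which held with the higher value in NP1867 for 0.667% of tested genes. The log2 fold change was 0.78 (SE 0.20, unadjusted p = 0.000565, limma adjusted p = 0.164, exact permutation p = 0.00216, two-sided), and it passed without NP1867 anti-PD-1 tumour 50 (0.89, adjusted p = 0.0437). The others were at 0.65 for Irf4, 0.60 for Cd83, 0.57 for Cd40, 0.55 for Flt3 and 0.45 for Xcr1. Limma called 0 of 5 and limma-voom 0, where the background was 0%. At an unadjusted p under 0.05 there was 1 of 5, against 11.5% of all tested genes. The median log2 fold change of all tested genes was 0.27.

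Among tumours of isotype mice, 0 of 5 genes were called in NP1867 against DMSO, 0 at an unadjusted p under 0.05 and 0 by limma-voom. Of all tested genes 0.167% were called in either direction, and 7.67% were under the unadjusted level. Log2 fold changes were -0.51 for Xcr1 (95% confidence interval -1.15 to 0.13), -0.52 for Irf4 (-1.36 to 0.31), -0.0072 for Cd40, 0.23 for Irf8, 0.31 for Flt3 and 0.47 for Cd83. The signs of Irf4 and Cd40 turned without the 4 tumours under 200000 counts, to 0.13 and 0.39.

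In the order of group means, NP1867 anti-PD-1 tumours were highest for all 6 genes. Most of the panel leaned the same way. Of the 600 tested genes, 514 had a higher mean there than in DMSO anti-PD-1 tumours, and 462 than in NP1867 isotype tumours. The next group was DMSO anti-PD-1 for Xcr1, Irf8, Irf4, Flt3 and Cd40, and NP1867 isotype for Cd83. The gap to the next group was larger than the larger SD of both groups for each gene, from 0.45 against an SD of 0.37 for Xcr1 to 0.78 against 0.49 for Irf8. All other neighbours in the order differed by less than the larger SD. For Xcr1 and Irf4 the lowest group was NP1867 isotype, and for Irf8, Flt3 and Cd83 it was DMSO isotype. For Cd40 the means of the isotype groups were 0.0072 apart, with NP1867 isotype the lower.

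**Figure D4:**
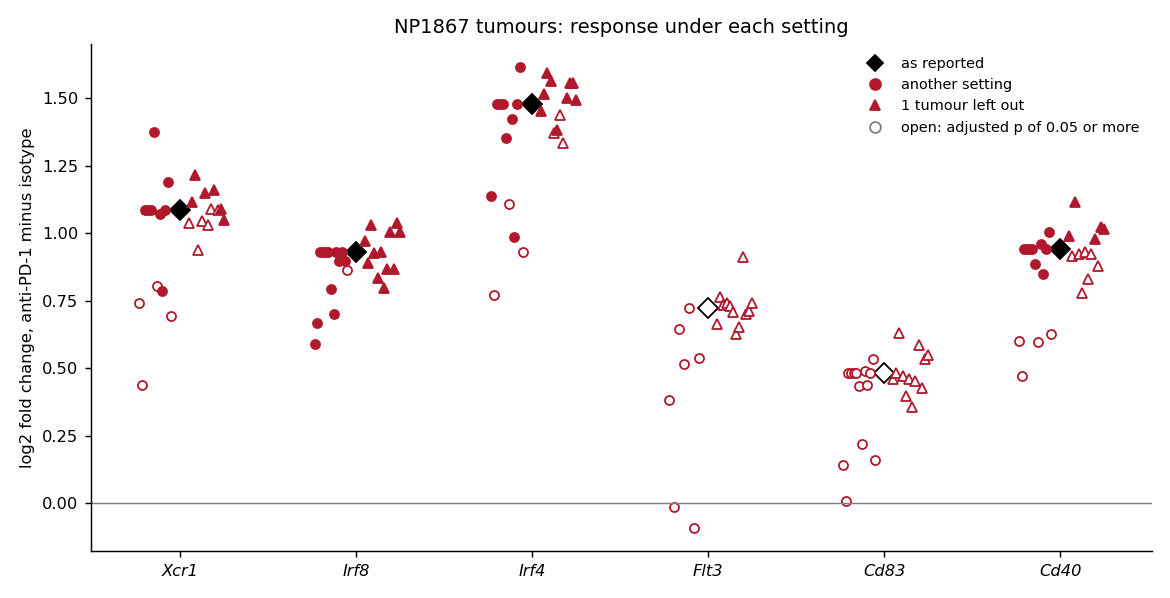
Log2 fold change of each gene in NP1867 tumours, anti-PD-1 minus isotype: diamonds are the values as reported, circles other settings and triangles fits with 1 tumour left out. Filled symbols have an adjusted p under 0.05; Irf8 has 1 open symbol, at 0.86, with the median of the dim genes as a covariate, while Flt3 and Cd83 have open symbols only.

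How the genes varied with each other was read over the 24 tumours, after each tumour was centred on its median and the group means were taken out. The 15 pairs had Pearson correlations from -0.03 (Irf8 with Irf4) to 0.69 (Flt3 with Cd83), with a median of 0.49. Xcr1 and Irf8, the pair that marks cross-presenting cells, had 0.03. Xcr1 with Cd40 had 0.51, Xcr1 with Flt3 0.53 and Irf8 with Cd40 0.45. Without the 4 tumours under 200000 counts the median of the 15 pairs was 0.25, and Xcr1 with Irf8 had -0.24. All points share the libraries, whose depth sets the error of the dimmer genes, so these are descriptions only.

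The tested genes most like each member were found in the same way, over the 24 tumours. For Xcr1 they were Ctsw (Pearson r 0.83), a protease of cytotoxic lymphocytes, Il22ra2 (0.75) and Btla (0.73). For Irf8 they were Csf2rb (0.74), Inpp5d (0.72) and the integrin chain Itgb2 (0.71), all of leukocytes. For Irf4 they were the mast cell gene Ms4a2 (0.73), Il18r1 (0.72) and Osm (0.69), and for Flt3 they were Irak2 (0.84), Cd28 (0.83) and Osm (0.83). For Cd83 they were Tnfrsf1a (0.82), the migration receptor Ccr7 (0.80) and the costimulatory ligand Cd86 (0.78). For Cd40 they were Itgal (0.76), Tlr5 (0.76) and Timd4 (0.72).

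Of 4 tested genes for the ligands of these receptors and for dendritic cell growth factor signalling, 1 was called higher in NP1867 tumours, where 12% of all tested genes were, and the median was 0.49. It was Csf2rb, the shared receptor chain for GM-CSF, IL-3 and IL-5, at 1.22 (SE 0.28, adjusted p = 0.0125), with levels of 6.99 ± 0.59 in anti-PD-1 and 5.77 ± 0.33 in isotype tumours. Xcl1, the ligand of XCR1 made by activated CD8 T and natural killer cells, was at 0.37 (adjusted p = 0.355). Flt3l, the ligand of FLT3, was at 0.12 (adjusted p = 0.725), and Cd40lg, the ligand of CD40 on activated CD4 T cells, at 0.61 (adjusted p = 0.199).

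Of the other cross-presenting genes, 0 of 2 tested were called in NP1867 tumours. Itgae, which encodes CD103 on tissue cross-presenting cells and on resident T cells, was at 0.89 (adjusted p = 0.0501), with 5.60 ± 0.42 in anti-PD-1 and 4.71 ± 0.52 in isotype tumours (SD, n = 6 each). Tlr3 was at 0.34. Averaged over both cultures Itgae was called (0.70, adjusted p = 0.0219). Batf3 and Clec9a, which define this branch, were not among the 750 genes by these symbols. Itgax, which encodes CD11c, was too dim to be tested, with a mean of 4.47 ± 0.54 in NP1867 anti-PD-1 and 3.46 ± 0.75 in NP1867 isotype tumours. The cells that carry Xcr1 here were therefore not identified by an independent defining marker.

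Among 5 plasmacytoid dendritic cell genes, 1 was called in NP1867 tumours, Tlr9, the sensor of CpG DNA (0.90, adjusted p = 0.0328), and the median was 0.58. Of all tested genes, 12% were called higher in this comparison. Of 4 conventional dendritic cell genes, 0 were called and the median was 0.66. Siglech, Tcf4, Spib and Pacsin1, also listed for plasmacytoid cells, were not among the panel genes by these symbols. The same held for Cd209a, Clec10a, Sirpa, Zbtb46 and Clec4a4 of the conventional list. Whether the values of the tested genes of these lists came from dendritic cells was not tested. Of 14 maturation and migration genes, 3 were called: Cd274, which encodes PD-L1 (1.07, adjusted p = 0.0144), the adhesion gene Icam1 (0.94, adjusted p = 0.0154) and Cd86 (0.93, adjusted p = 0.0221). Ccr7 was at 0.85 (adjusted p = 0.0828), Il12b, a chain of interleukin 12, at 0.54 and Cd80, the partner of Cd86, at -0.07. The median of the 14 was 0.68, against 0.43 for all tested genes. Averaged over both cultures, where 27% of all tested genes were called higher, 7 of the 14 were called, Ccr7 among them (0.83, adjusted p = 0.0184).

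Downstream of CD40, 1 of 10 signalling genes was called in NP1867 tumours, the NF-kB subunit Rel (0.60, adjusted p = 0.0195), with a median of -0.08. This share is close to the 12% of all tested genes called higher. Of 13 other interferon regulatory factors and partners, 0 were called and the median was 0.41, with Irf1 at 0.56 (adjusted p = 0.0662). Averaged over both cultures, 3 of these 13 were called, with Irf7 (0.68) and Irf1 (0.48) among them, a share no larger than the 27% of all tested genes called higher. In DMSO tumours 0% of all tested genes were called, so 0 genes of these lists could be.

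**Figure D5:**
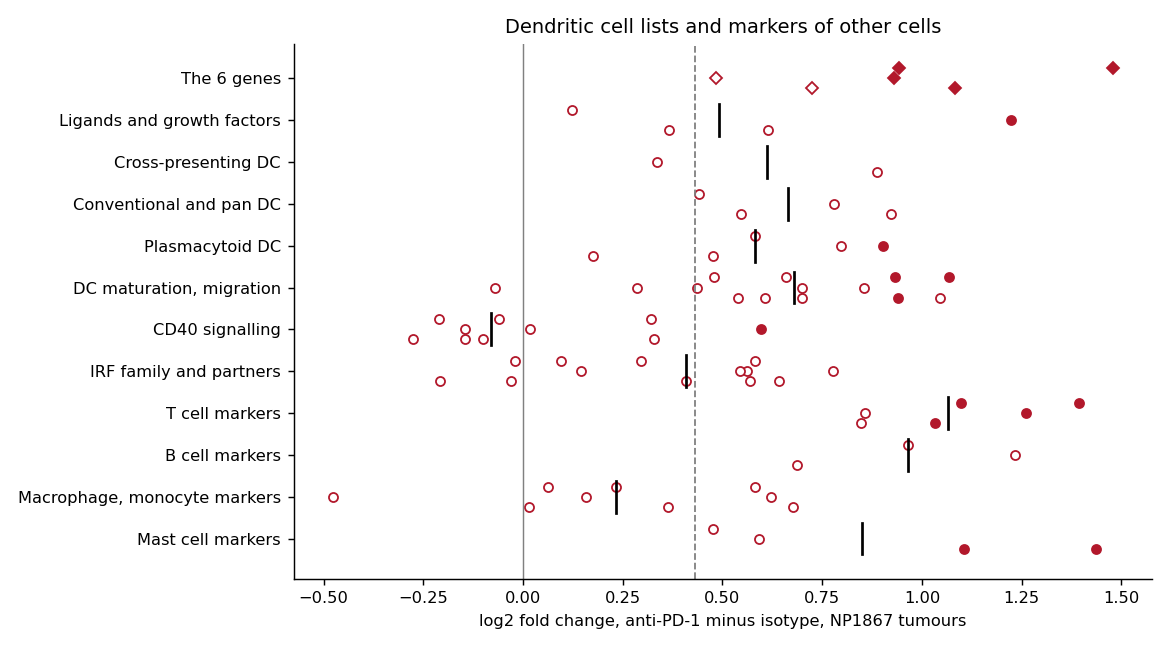
Log2 fold change of anti-PD-1 over isotype in NP1867 tumours for the tested genes of each list, with filled points for an adjusted p under 0.05. Diamonds mark the 6 genes described here, black ticks the median of a list and the dashed line the median of all tested genes, 0.43; DC stands for dendritic cell.

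Markers of other cell types were read in the same comparison, where 12% of all tested genes were called higher and their median was 0.43. T cell genes, which include users of Irf4, had 4 of 6 tested members called higher in NP1867 tumours, with a median of 1.07, and their summed level ran from 509 to 978 on the linear scale in anti-PD-1 tumours and from 179 to 526 in isotype tumours. B cell genes, which would share Irf8, Irf4, Cd83 and Cd40, had 0 of 3 called and a median of 0.96; all 9 of the list were in the table, 6 of them too dim to be tested, and their summed level ran from 105 to 351 in anti-PD-1 and from 85.4 to 161 in isotype tumours. Macrophage genes had 0 of 9 called, with a median of 0.23, and a summed level of 4505 to 10863 in anti-PD-1 tumours, against 4138 to 10690 in isotype tumours. Plasma cell genes had 0 of 3 called and a summed level of 514 to 853, against 401 to 878. Mast cell genes had 2 of 4 called, with a median of 0.85 and a summed level of 394 to 1086 in anti-PD-1 tumours, against 217 to 564 in isotype tumours. Neutrophil genes had 1 of 3 called, with a median of 0.83 and a summed level of 313 to 1536, against 121 to 1234. Natural killer cell genes had 0 of 3 called, with a median of 0.72 and a summed level of 400 to 818, against 270 to 657. In DMSO tumours 0 genes of these marker lists were called, where 0% of all tested genes were. As the counts were recovered from log2 values, none could be 0, so a count alone does not show that a marker was detected. Ptprc, which all leukocytes express, was at 0.54 (adjusted p = 0.159). The part of these cells in the values of Xcr1, Irf8, Irf4, Flt3, Cd83 and Cd40 was not tested.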

How the data were processed

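The authors deposited 1 table of log2 values for 750 genes in 24 tumours, measured from 3 sections of 10 um and 100 ng of RNA per tumour, per the labels' protocols. The normalisation behind the values is not given in the sources used here. Each value was a whole count times 1 factor per tumour (0.522 to 5.457) within a tolerance of 0.05 of a count for 100% of values. The 600 genes whose mean reached log2 of 20 were tested. Python 3.11.15 prepared the tables. The log2 values were fitted with a mean for each of the 4 groups in limma 3.58.1 under R 4.3.3 (20 residual degrees of freedom, a trended prior), with Benjamini-Hochberg adjustment over the genes of a comparison. Flt3 came from a fit of all 750 genes. Single genes were also tested by exact permutation over all assignments of 6 against 6 tumours. The fit was tested on simulated data. Genes named follow a rule: the 6 members, up to 4 called genes of each list, a small fixed set of related genes, and the 3 genes most like each member. Members and lists were chosen with earlier results of these data known. Alternatives were centring, quantile normalisation, other filters, fits of the groups compared, robust and weighted fits, Ptprc, log2 total count, or the median of the dim genes as covariates, limma-voom, 10 added before the logarithm, and tumours left out. Each tumour is 1 replicate of the antibody treatment, and the labels name no batch and no separate cultures. Precision is limited by 6 tumours a group and by counts as low as 4 for the dimmest gene.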

Additional observations from a re-analysis of the deposited data

Results flagged for a closer look

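Of the 24 gene and group combinations examined (6 genes in 4 groups of 6), 1 had a tumour far from the others. Cd83 in NP1867 isotype tumour 47 was at 7.03, which is 114 counts, and the next tumour was at 6.29; this gap is 0.634 of the whole range of the group, above the critical value of Dixon's test at the 95% level. About 1 in 20 such groups is flagged by chance.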

How the results depend on the processing

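Counts of the 5 genes called depended on scaling and on single tumours. Irf4, which was tested through the anti-PD-1 groups, is among the 5. In NP1867 tumours 4 were called, and 2 after centring, 1 after quantile normalisation, 2 of the 3 genes tested with a filter at 50, 1 with Ptprc as a covariate, 0 with the dim-gene median as a covariate, and from 1 to 4 with 1 tumour left out (1 without isotype 57 or anti-PD-1 78 or 30, 2 without isotype 49 or anti-PD-1 45). Over all genes the split of 72 higher and 2 lower became 38 and 40 after centring and 23 and 32 after quantile normalisation. The medians were 0.43, 0.09 and -0.02. Calls over all genes went from 74 to 64 with the filter at 50, 16 with Ptprc and 4 with the dim-gene median. The filter at 50 tested fewer than 600 genes here and below, so its counts are not out of the same total. They fell to 27 without isotype 57, 14 without anti-PD-1 78, 30 without anti-PD-1 30, 39 without isotype 49 and 27 without anti-PD-1 45. In DMSO tumours 4 were called with array weights (250 of all genes higher, 23 lower) and 0 otherwise, 0 to 0 with 1 tumour left out. Averaged over both cultures 4 were called, and 1 after centring, 1 after quantile normalisation and 2 of 3 with the filter at 50. All 5 were called with array weights (404 of all 600 genes called), limma-voom (228) and without the 4 tumours under 200000 counts (318). The count was 1 with Ptprc, 1 with the dim-gene median, and 2 to 5 with 1 tumour left out. The count was 2 without DMSO isotype 55 or 59, DMSO anti-PD-1 7 or NP1867 anti-PD-1 78. Over all genes 176 were called, and 149 after centring, 164 after quantile normalisation and 155 with the filter at 50. There were 52 with Ptprc, 73 with the dim-gene median, and 97, 116, 103 and 91 without those tumours in that order. In isotype mice, NP1867 against DMSO, 1 was called with array weights, which was Cd83, where 13 of all 600 genes were called. In anti-PD-1 mice 0 to 1 were called with 1 tumour left out. The 1 was Irf8 without NP1867 anti-PD-1 tumour 50, where 2 of all 600 genes were called. The cause was not tested.

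Signs turned for small values. Xcr1 in DMSO tumours was at -0.13 after centring, -0.24 after quantile normalisation, -0.045 with Ptprc, -0.0093 with the dim-gene median, and from -0.12 (without DMSO isotype 55) to 0.36 with 1 tumour left out. After quantile normalisation Irf4 and Cd83 in DMSO tumours were at -0.0012 and -0.0086, and Cd83 averaged over both cultures at -0.0011. The difference between responses for Cd83 was -0.27 with array weights, -0.19 without the 4 tumours under 200000 counts, -0.10 with the dim-gene median, and from -0.16 (without DMSO isotype 23) to 0.27 with 1 tumour left out, with -0.0019 without NP1867 anti-PD-1 78. In isotype mice Irf4 was at 0.11 with array weights and 0.13 without the 4 tumours, and Cd40 at 0.30, 0.18 (limma-voom), 0.39, 0.080 (log2 total) and 0.17 (dim-gene median), and from -0.18 to 0.22 with 1 tumour left out. Flt3 was at -0.013 and -0.092 in NP1867 tumours (quantile normalisation, dim-gene median), at -0.069, -0.042, -0.29 and -0.31 for the difference (quantile normalisation, limma-voom, without the 4 tumours, dim-gene median), and from -0.28 (without DMSO isotype 23) to 0.59 with 1 tumour left out. In isotype mice it ran from -0.039 (without DMSO isotype 59) to 0.83 with 1 tumour left out. Of 986 alternative values 880 kept their direction and their side of the threshold, 59 fell under the threshold, 12 passed it and 35 changed sign. This total pools called and uncalled results. In NP1867 tumours the call was kept in 14 of 24 alternatives for Xcr1, 14 of 25 for Cd40, 18 of 24 for Irf4 and 24 of 25 for Irf8. Averaged over both cultures it was kept in 16 of 35 for Xcr1, 27 of 35 for Irf4, 32 of 36 for Cd40 and 36 of 36 for Irf8. No paired analysis was possible because the groups compared share fewer than 2 replicate numbers.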

Other observations

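Cd207, which encodes langerin and is carried by Langerhans cells and some cross-presenting dendritic cells, was too dim to be tested. Its mean log2 value was 4.28 ± 0.62 in NP1867 anti-PD-1, 3.10 ± 0.43 in NP1867 isotype, 4.18 ± 0.69 in DMSO anti-PD-1 and 3.79 ± 1.42 in DMSO isotype tumours (SD, n = 6 each), from 4 to 32 counts, which is near the median of the dim genes in each group.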
